A study of Mus musculus with 12 samples.

Results

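The Forkhead genes were taken as all genes whose mouse symbol is Fox, a letter from a to s and a number, which gave 44 of the 55385 genes in the count table. They were measured by RNA sequencing in cells from C57BL/6 mice in 3 groups of 4 libraries. The groups were primary cultures of normal endometrial cells (called normal below), the endometrial cancer line mECC and the endometrial cancer line HPmECC. Per the design text the cancer lines were studied with or without added Myc, but no label tells which line carries it. In the titles, B6 stands beside the normal cultures, DM beside mECC and WT beside HPmECC, and these codes are not explained. No label names a driver mutation, a promoter, an age or a number of clones. Whether replicate libraries are separate cultures, or RNA of the same culture, is not stated. The p-values below therefore measure only how far these libraries scatter, which may be technical variation.

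Library totals ran from 16332060 to 26873582 counts. Levels of a gene between groups are given as CPM, counts scaled to the size of the library with TMM factors, and levels between genes as TPM, which also allows for transcript length. The 9 epithelial markers summed to 8982 to 9322 CPM in the normal libraries, 1558 to 1596 CPM in mECC and 307 to 323 CPM in HPmECC, with none at 0. The 8 markers of fibroblasts and stroma summed to 2170 to 2701 CPM in normal, 7332 to 8133 CPM in mECC, where Thy1 was at 0, and 8317 to 8967 CPM in HPmECC. Normal libraries also held markers of smooth muscle (5 genes, 2276 to 2743 CPM), mesothelium (5 genes, 444 to 486 CPM), leukocytes (7 genes, 217 to 232 CPM) and endothelium (5 genes, 98.2 to 108 CPM). In both lines these summed to at most 247, 42.1, 16.01 and 7.66 CPM, and defining markers at 0 included Tyrobp and Cd3e in both lines, Wt1 in mECC, and Cdh5, Tek and Ptprc in HPmECC. In bulk samples, fewer cells of a type and less RNA per cell cannot be told apart, and this holds for every difference below.

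Forkhead proteins are transcription factors that share a winged-helix DNA-binding domain, and the letter in the name marks the subfamily. FOXA proteins can open closed chromatin, FOXO proteins are kept out of the nucleus by AKT when insulin signalling is on, and FOXM1 drives genes of late cell cycle. In the uterus, FOXA2 marks the glands, FOXJ1 the ciliated epithelial cells, FOXO1 acts in decidualizing stroma, and FOXL2 is expressed in the stroma and in the ovary.

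The family is defined by its DNA-binding domain, so the stretch coding for the recognition helix, which lies in the major groove of DNA, is shown for 10 members that differed between the groups. It is 30 bases (10 codons) long and was found in 39 of the 44 members; in 25 of these it lies in 1 exon. The capitals mark the arginine and histidine codons at bases 16 to 21, counted from 1 at the 5′ end. The sequences are those of GENCODE release M21 transcripts on GRCm38, read on the coding strand.
Foxc1: tggcagaacagcataCGGCACaacctctcg
Foxc2: tggcagaacagcatcCGCCACaacctgtca
Foxd1: tggcagaacagcatcCGTCACaacctgtcg
Foxf1: tggaagaactccgtgCGCCACaacctgtcg
Foxf2: tggaagaactccgtgCGCCACaacctctcg
Foxl1: tggcagaacagcatcCGCCACaacctgtcg
Foxl2: tggcagaatagcatcCGCCACaacctcagc
Foxm1: tggaagaactctattCGTCACaacctttct
Foxq1: tggcgcaactccgtgCGCCACaacctctcg
Foxs1: tggcaaaacagcatcCGCCATaacctgtct

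Across the 39 members, 10 of the 30 positions were the same in all, and pairs of members differed at a median of 7 bases, with a range from 0 to 15. Foxd3, Foxd4 and Foxl1 were identical over this stretch. Foxf1 and Foxf2 differed at 1 base, as did Foxc2 and Foxl1. The stretch lies in coding sequence at chr13:31807571-31807600 (plus strand) in Foxc1, chr13:98355139-98355168 (plus strand) in Foxd1 and chr8:121084672-121084701 (plus strand) in Foxf1. In Foxm1 an intron splits it. Over whole transcripts the members were easier to tell apart: Foxc1 and Foxc2 shared 4 runs of 50 bases, and no other pair of the members printed above shared any.

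Of the 44 Forkhead genes, 27 had enough counts to be tested. Another 9 had a few counts, and 8 had none in the 12 libraries: Foxb2, Foxd3, Foxd4, Foxe1, Foxe3, Foxi3, Foxn4 and Foxr1. The summed level of the family was 308 ± 5.97 TPM in normal, 504 ± 4.71 TPM in mECC and 527 ± 13.9 TPM in HPmECC (SD, n = 4 each). The FOXP, FOXK and FOXO subfamilies led in normal cells, with 69.6 ± 1.78, 53.0 ± 2.28 and 61.3 ± 1.60 TPM. FOXP and FOXK stood at 105 ± 2.41 and 94.5 ± 1.45 TPM in mECC, and at 122 ± 1.88 and 99.8 ± 3.42 TPM in HPmECC, while FOXO stood at 58.1 ± 1.10 and 69.6 ± 2.64 TPM. The FOXC genes made up 0.460% ± 0.0528 of the family's TPM in the normal group, 9.04% ± 0.437 for mECC and 7.34% ± 0.374 for HPmECC. FOXD held 0.0290% ± 0.0334, 4.90% ± 0.403 and 5.42% ± 0.132 in the same order, and Foxq1 went the other way with 4.03% ± 0.304, 0.331% ± 0.0366 and 0.504% ± 0.0791.

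**Figure D1:**
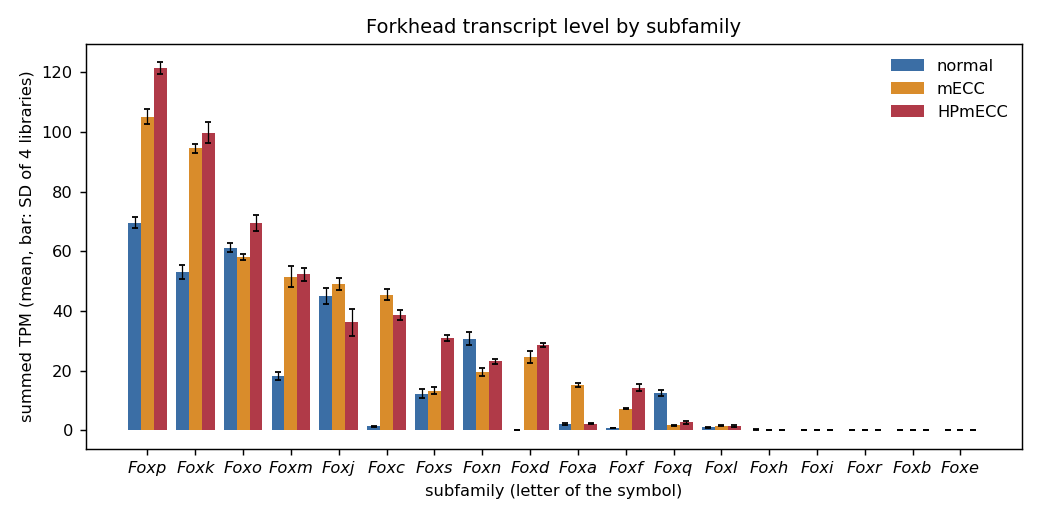
Summed TPM of each Forkhead subfamily (vertical axis, linear, from 0), by the letter of the gene symbols (horizontal axis), as the mean of 4 libraries with SD bars for normal, mECC and HPmECC. FOXP, FOXK and FOXO are high in the 3 groups, FOXC and FOXD are near 0 in normal cells, and FOXQ is highest in normal cells.

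Foxk2 was the most abundant member by TPM in each group, at 41.3 ± 2.02, 67.5 ± 1.66 and 66.8 ± 3.65 TPM in normal, mECC and HPmECC. Foxp4 came next with 39.9 ± 1.60, 62.7 ± 1.03 and 60.8 ± 1.17 TPM. In normal cells the values of this pair overlapped, and Foxo1 (31.3 ± 0.844 TPM) and Foxp1 (29.4 ± 2.41 TPM), which also overlapped, followed. In mECC the next places were taken by Foxm1 (51.6 ± 3.46 TPM), Foxp1 (42.3 ± 2.28 TPM) and Foxc1 (35.98 ± 1.81 TPM), with no overlap between neighbours. In HPmECC Foxp1 (60.6 ± 2.58 TPM) overlapped with Foxp4, and Foxm1 (52.3 ± 2.13 TPM) and Foxk1 (33.0 ± 0.575 TPM) came below them. Foxo1, which held the third place in normal cells, had 13.2 ± 0.884 TPM in mECC and 13.2 ± 0.666 TPM in HPmECC.

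Of the 27 tested members, 17 rose and 7 fell in mECC against normal (edgeR quasi-likelihood test, Benjamini-Hochberg adjusted p at most 0.05), where 86.3% of all 15283 genes tested were called (42.1% higher and 44.2% lower). In HPmECC against normal 17 rose and 8 fell, beside 86.4% of all genes (43.0% and 43.3%). Between the lines 13 were higher and 7 lower in HPmECC, beside 68.3% of all genes (33.8% and 34.5%). With at least a 2-fold change, 11 rose and 5 fell in mECC (41.2% of all genes, 18.4% higher and 22.8% lower), 11 rose and 6 fell in HPmECC (41.5%, or 18.5% and 23.0%), and 2 were higher and 5 lower in HPmECC than in mECC (16.1%, or 6.73% higher and 9.40% lower). A member that passed the count filter only through the group where it was high had to differ, so these counts are a description and not evidence about the family. The 3 comparisons share libraries, and their values are therefore given side by side.

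**Figure D2:**
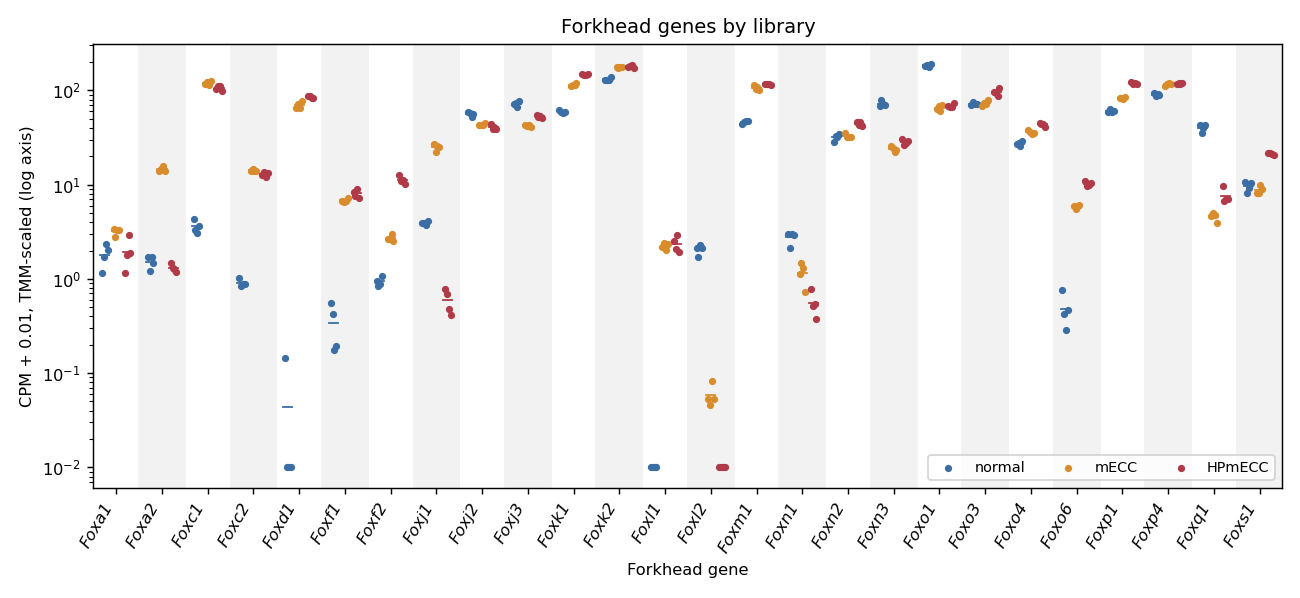
CPM of 26 tested Forkhead genes in each of the 12 libraries (vertical axis, log scale; libraries at 0 lie on the lowest line), with a short line at each group's mean. Foxd1 and Foxl1 are at or near 0 in normal libraries, Foxl2 is at 0 in HPmECC libraries, and Foxk2, Foxp4 and Foxo3 lie within a narrow range.

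**Figure D3:**
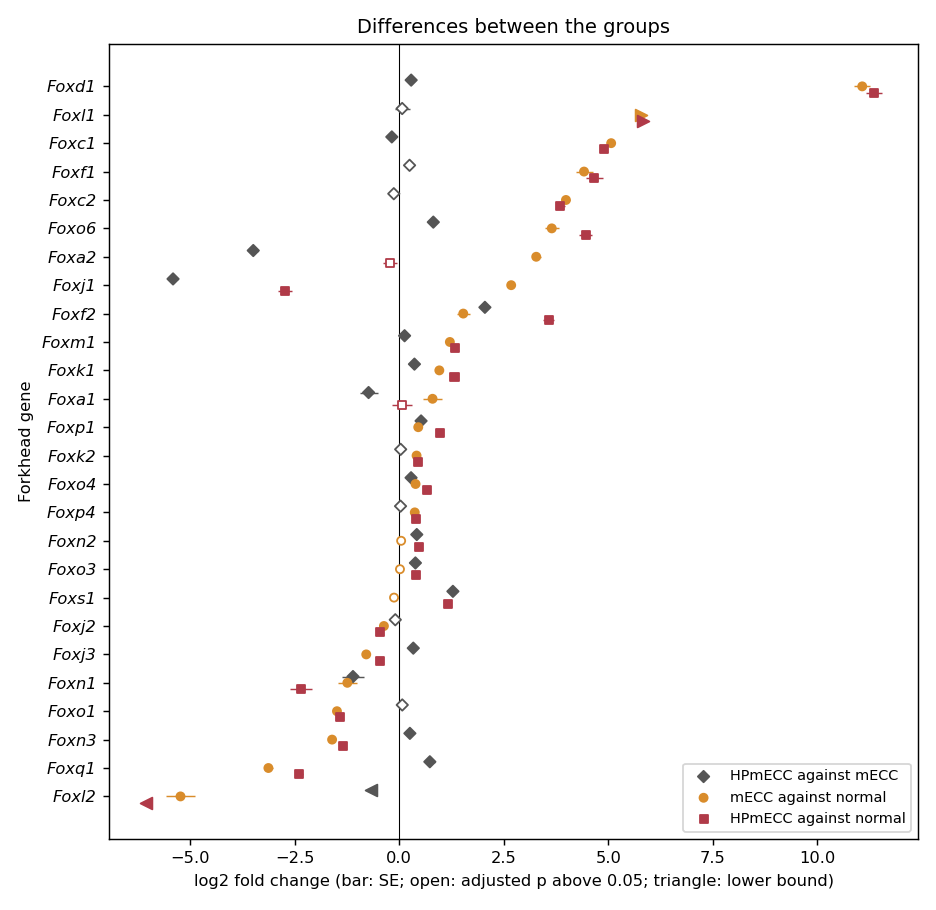
Log2 fold changes of 26 tested Forkhead genes (horizontal axis; bars are SE, open symbols have an adjusted p above 0.05) for the 3 comparisons, ordered by mECC against normal. Triangles are lower bounds, drawn where 1 group has no counts: Foxl1 against normal, and Foxl2 against HPmECC. Foxj1 and Foxa2 lie on opposite sides of 0 for mECC against normal and HPmECC against mECC.

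Large differences were seen in Forkhead genes known from mesenchyme and from patterning of the embryo. Foxc1, Foxc2, Foxd1, Foxf1, Foxf2 and Foxl1 were at or below 4.33 CPM in every normal library and were higher in both lines. Foxc1 (ENSMUSG00000050295), a factor of mesenchyme, the eye and blood vessels, stood at 4.33, 3.32, 3.09 and 3.63 CPM in normal libraries. It had 116, 123, 113 and 125 CPM in mECC libraries and 105, 110.2, 110.2 and 97.4 CPM in HPmECC libraries. No group overlapped another, and the lines lay close to each other and far above normal. Foxc1 was 33.5-fold higher in mECC (log2 fold change 5.07, with SE 0.07 and adjusted p = 4.47e-21 by edgeR) and 29.6-fold higher in HPmECC (4.89, with SE 0.08 and adjusted p = 7.97e-21) than in normal cells. Between the lines HPmECC was lower by a log2 fold change of -0.18 (SE 0.04, edgeR adjusted p = 0.00158).

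Foxd1 (ENSMUSG00000078302), a factor of kidney stroma, had 2 counts in the normal group, both in replicate 1 (0.135, 0, 0 and 0 CPM). It had 65.8, 71.5, 65.4 and 77.6 CPM in mECC and 86.7, 87.7, 83.7 and 82.7 CPM in HPmECC. The 3 groups did not overlap. The ratio to normal was 2586 for mECC (95% counting interval 716 to 21356) and 3154 for HPmECC (873 to 26050.3), where the intervals cover counting error only. Without normal replicate 1 the normal group is at 0, and the fitted log2 fold changes move from 11.07 to 13.69 for mECC and from 11.36 to 13.97 for HPmECC. Between the lines Foxd1 was 1.22-fold higher in HPmECC (log2 fold change 0.28, with SE 0.05 and adjusted p = 9.63e-05 by edgeR), a call lost with limma on log2(TPM + 0.1), where the adjusted p was 0.142.

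Foxf2 (ENSMUSG00000038402), a factor of gut and palate mesenchyme, separated the lines most among these genes. Its normal libraries held 0.948, 0.831, 0.881 and 1.06 CPM, its mECC libraries 2.65, 2.62, 3.01 and 2.51 CPM, and its HPmECC libraries 12.7, 10.8, 11.1 and 10.2 CPM. The groups did not overlap and rose from normal through mECC to HPmECC. HPmECC exceeded mECC 4.13-fold (log2 fold change 2.05, with SE 0.10 and adjusted p = 3.03e-12 by edgeR), and mECC exceeded normal 2.89-fold (1.53, with SE 0.16 and adjusted p = 4.15e-08). Its close relative Foxf1 (ENSMUSG00000042812), which is needed for lung and gut vessels, had 0.542, 0.416, 0.165 and 0.184 CPM in normal, 6.71, 6.50, 6.63 and 7.28 CPM in mECC and 8.40, 7.65, 8.97 and 7.26 CPM in HPmECC. The lines overlapped for Foxf1 and both lay above normal. Foxf1 was 21.4-fold above normal in mECC (log2 fold change 4.42, with SE 0.20 and adjusted p = 1.57e-13 by edgeR) and 25.3-fold in HPmECC (4.66, with SE 0.20 and adjusted p = 4.67e-14). Between the lines the log2 fold change was 0.25 (SE 0.11, adjusted p = 0.0525), and without HPmECC replicate 4 it was 0.30 with an adjusted p of 0.0257. A fit of only these 2 groups also called it (0.24, adjusted p = 0.0209), as did a filter of at least 5 CPM in 4 libraries (0.25, adjusted p = 0.0428).

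Foxc2 (ENSMUSG00000046714), a factor of lymphatic vessels and of mesenchyme, had 1.02, 0.831, 0.881 and 0.872 CPM in normal, 14.1, 14.8, 14.1 and 14.001 CPM in mECC and 12.7, 13.7, 11.9 and 13.4 CPM in HPmECC. Both lines lay far above normal. It was 15.8-fold higher in mECC and 14.5-fold higher in HPmECC than in normal (log2 fold changes 3.99 and 3.85, SE 0.11 each, edgeR adjusted p = 2.73e-17 and 5.58e-17). The lines differed by a log2 fold change of -0.13 (SE 0.06, edgeR adjusted p = 0.0705), although their libraries did not overlap; the difference was called with library totals (-0.18, adjusted p = 0.0190), median-of-ratios factors (-0.15, adjusted p = 0.0462) and limma on log2(TPM + 1) (-0.19, adjusted p = 0.0230). Foxl1 (ENSMUSG00000097084), a marker of stromal cells under the gut epithelium, had no counts in normal, 2.18, 2.40, 1.99 and 2.34 CPM in mECC and 2.52, 2.07, 2.94 and 1.92 CPM in HPmECC. The lines overlapped. With 3 counts over the 4 normal libraries taken as the floor, Foxl1 was at least 54.9-fold higher in mECC and at least 56.8-fold higher in HPmECC.

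Foxs1 (ENSMUSG00000074676), known from pericytes and sensory neurons, was higher in HPmECC than in the other groups. Its libraries held 10.8, 8.21, 9.09 and 10.3 CPM in normal, 8.21, 8.07, 9.78 and 8.98 CPM in mECC and 21.9, 21.7, 21.05 and 20.6 CPM in HPmECC. Normal and mECC overlapped, and HPmECC lay above both. The difference was 2.43-fold from mECC (log2 fold change 1.28, with SE 0.08 and adjusted p = 4.03e-11 by edgeR) and 2.23-fold from normal (1.16, with SE 0.08 and adjusted p = 8.74e-11). For mECC against normal the log2 fold change was -0.13 (SE 0.09, adjusted p = 0.186), and without normal replicate 2 it was -0.20 with an adjusted p of 0.0423. With library totals or on the TPM scale its sign turned, at 0.11. Smooth muscle markers moved with Foxs1 and Foxf2 between the lines, and summed to 51.2 to 53.6 CPM in mECC and 186 to 247 CPM in HPmECC. Of the 5, 3 were called higher in HPmECC and 0 lower, beside 33.8% and 34.5% of all genes tested. All 5 were lower in both lines than in normal, as were 44.2% of all genes in mECC and 43.3% in HPmECC. Acta2 was 4.33-fold and Des 6.76-fold higher in HPmECC than in mECC (edgeR adjusted p = 4.55e-14 and 1.27e-12). The 8 stromal markers were split, with 4 higher and 4 lower in each line than in normal. Of all genes tested, 42.1% rose and 44.2% fell in mECC, and 43.0% rose and 43.3% fell in HPmECC. The stromal markers had median log2 fold changes of 0.26 in mECC and -0.25 in HPmECC. Their larger sum in the lines came with abundant collagens such as Col3a1 (119, 2531 and 4042 CPM in normal, mECC and HPmECC), while Thy1 stood at 15.6, 0 and 0.194 CPM. The part of these markers in the levels of the mesenchymal members was not tested.

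Foxq1 (ENSMUSG00000038415), a factor of epithelia and hair, went the other way. It had 43.1, 35.4, 39.5 and 42.8 CPM in normal, 4.62, 4.94, 4.78 and 3.92 CPM in mECC and 9.72, 6.72, 7.03 and 7.04 CPM in HPmECC. The groups did not overlap, and normal was far above both lines. The fall was 8.76-fold in mECC (log2 fold change -3.13, with SE 0.10 and adjusted p = 8.61e-16 by edgeR) and 5.28-fold in HPmECC (-2.40, with SE 0.10 and adjusted p = 1.79e-14). HPmECC exceeded mECC 1.66-fold (0.73, with SE 0.12 and adjusted p = 3.83e-05). The epithelial markers given above were also lower in both lines, and their part in the level of Foxq1 was not tested. A gene on the opposite strand, A530084C06Rik, shares 65.7% of the 50-base runs of Foxq1 and had 0 counts in every library. The strand setting of the counting is not given in the sources used here, so reads of this pair may not be told apart.

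Several of these genes are neighbours in the genome. On chromosome 8, Foxf1, Foxc2 and Foxl1 lie on the plus strand within 46.259 kb (GRCm38), starting at 121084386, 121116171 and 121127940. All 3 were higher in both lines. Fendrr, a noncoding gene that starts on the minus strand beside Foxf1, had 0 counts in normal, 153 in mECC (1.52 ± 0.421 CPM) and 81 in HPmECC (0.839 ± 0.286 CPM), which is at least 37.0-fold and at least 20.5-fold above the floor. Mthfsd, which lies between Foxf1 and Foxc2 on the minus strand, was lower by a log2 fold change of -0.42 in mECC and -0.70 in HPmECC (SE 0.05 each, edgeR adjusted p = 1.28e-07 and 9.35e-11). The 12 other tested genes that reach within 500 kb include Fendrr, Mthfsd and Gm20388, which spans 119910841 to 124345722. Of the 12, 8 rose and 4 fell in mECC against normal, beside 42.1% and 44.2% of all genes tested. In HPmECC against normal 6 rose and 5 fell, beside 43.0% and 43.3%. Irf8, a factor of myeloid cells, fell furthest, with log2 fold changes of -3.82 and -7.44. The leukocyte markers given above fell as well, and their part in the level of Irf8 was not tested.

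On chromosome 13, Foxq1, Foxf2 and Foxc1 lie on the plus strand within 256.343 kb, starting at 31556134, 31625816 and 31806633. This trio did not move together, since Foxq1 fell while Foxf2 and Foxc1 rose. Gmds, a sugar nucleotide enzyme gene beside Foxc1, was the single other gene tested within 500 kb, and it rose by 0.76 and 0.63 (log2, SE 0.06 each, edgeR adjusted p = 5.23e-10 and 9.68e-09). Foxd1 is on the same chromosome at 98354242, far from the trio. On chromosome 4, Foxd2 had 9, 32 and 24 counts in normal, mECC and HPmECC, too few to test, and Foxe3, 16.274 kb from it, had none. The noncoding Foxd2os, which starts beside Foxd2, was called higher in both lines (log2 fold changes 2.07 and 1.16, SE 0.31 and 0.34, edgeR adjusted p = 5.16e-06 and 0.00411).

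**Figure D4:**
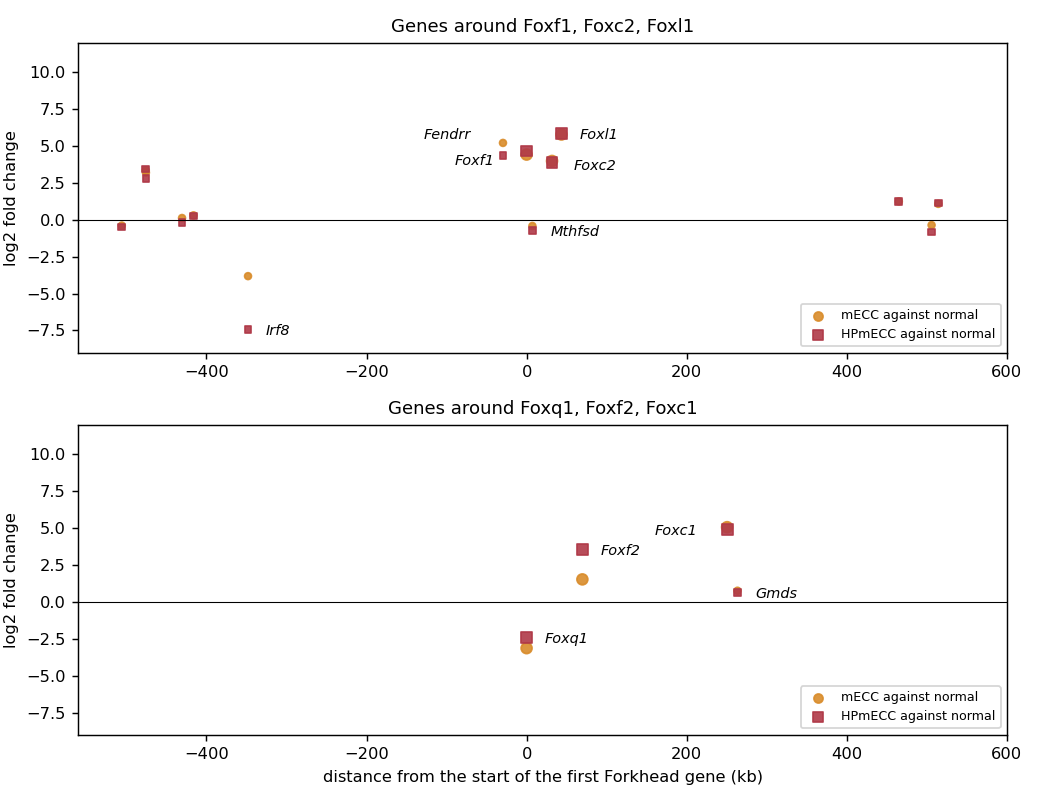
Log2 fold changes against normal (vertical axis) of the tested genes around 2 groups of neighbouring Forkhead genes, by distance from the start of the first Forkhead gene (horizontal axis, kb); circles are mECC, squares HPmECC, and Forkhead genes have larger symbols. Fendrr and Foxl1 are drawn at their lower bounds, and Gm20388, which starts farther to the left, is not drawn. In the upper panel the Forkhead genes and Fendrr lie above Mthfsd, and in the lower panel Foxq1 lies below 0 with Foxf2 and Foxc1 above it.

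Promoter windows are shown for Foxc1, Foxf2 and Foxd1, which rose in both lines and have an entry in the RefSeq table used here (GRCm38.p6). Each window is the 250 bases before the annotated start, printed on the coding strand, and capitals mark the CCAAT box (CCAAT, or ATTGG on the other strand), which the Foxf2 window does not hold.
Foxc1 promoter: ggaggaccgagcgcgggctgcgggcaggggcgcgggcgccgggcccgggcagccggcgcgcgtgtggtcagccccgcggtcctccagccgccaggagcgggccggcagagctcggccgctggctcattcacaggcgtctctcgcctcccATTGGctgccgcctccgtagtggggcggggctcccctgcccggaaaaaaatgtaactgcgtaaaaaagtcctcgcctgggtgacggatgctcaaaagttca
Foxf2 promoter: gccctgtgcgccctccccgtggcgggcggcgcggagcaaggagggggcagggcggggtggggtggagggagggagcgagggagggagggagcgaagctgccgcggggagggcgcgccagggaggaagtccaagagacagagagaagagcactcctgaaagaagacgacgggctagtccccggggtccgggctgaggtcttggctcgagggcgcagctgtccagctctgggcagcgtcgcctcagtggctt
Foxd1 promoter: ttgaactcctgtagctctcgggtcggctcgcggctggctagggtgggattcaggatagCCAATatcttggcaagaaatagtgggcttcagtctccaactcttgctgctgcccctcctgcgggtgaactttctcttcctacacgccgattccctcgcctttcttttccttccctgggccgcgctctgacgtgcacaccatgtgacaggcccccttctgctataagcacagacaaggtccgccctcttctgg

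The windows are chr13:31806396-31806645 for Foxc1, chr13:31625566-31625815 for Foxf2 and chr13:98353995-98354244 for Foxd1, all on the plus strand. They hold 29, 21 and 12 CpG, more than in 93.2%, 83.7% and 66.5% of the 32851 windows in the table. Of the 44 members, 28 had an entry, with 33 windows in all, and their median was 16 CpG against 6 over all windows. The CCAAT box was in 14 of the 33 and in 33.8% of all windows. The forkhead core motif (TGTTTAC, or GTAAACA on the other strand) was in 1, that of Foxa1, and in 3.17% of all windows. The E-box CACGTG was in 1, that of Foxd3, and in 6.02% of all. A match describes these letters in this window and is not a binding site.

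Foxa2 and Foxj1, markers of uterine glands and of ciliated cells, were high in mECC alone. Foxa2 (ENSMUSG00000037025) stood at 1.69, 1.19, 1.71 and 1.47 CPM in normal, 14.1, 14.6, 15.8 and 13.9 CPM in mECC and 1.45, 1.29, 1.26 and 1.18 CPM in HPmECC. Normal and HPmECC overlapped, and each mECC library lay far above them. Foxa2 was 9.68-fold higher in mECC than in normal (log2 fold change 3.27, with SE 0.11 and adjusted p = 1.52e-15 by edgeR) and 11.3-fold lower in HPmECC than in mECC (-3.49, with SE 0.11 and adjusted p = 2.97e-15). HPmECC and normal differed by -0.22 (SE 0.16, adjusted p = 0.267). Foxa1 (ENSMUSG00000035451), its relative in hormone-responsive epithelia, was low throughout, at 1.80 ± 0.497, 3.18 ± 0.278 and 1.94 ± 0.741 CPM in normal, mECC and HPmECC. It was 1.74-fold higher in mECC than in normal (0.80, with SE 0.23 and adjusted p = 0.00326) and 1.66-fold lower in HPmECC than in mECC (-0.73, with SE 0.22 and adjusted p = 0.00558). Foxa3, a liver and gut member, had 4, 3 and 8 counts.

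Foxj1 (ENSMUSG00000034227), which switches on genes of motile cilia, had 3.93, 3.95, 3.69 and 4.09 CPM in normal, 26.9, 22.5, 25.8 and 25.2 CPM in mECC and 0.767, 0.679, 0.472 and 0.405 CPM in HPmECC. The groups did not overlap, with mECC above and HPmECC below normal. HPmECC was 42.6-fold below mECC (log2 fold change -5.41, with SE 0.12 and adjusted p = 2.78e-17 by edgeR). Against normal the lines went in opposite directions, 6.39-fold up in mECC (2.68, with SE 0.09 and adjusted p = 1.47e-15) and 6.66-fold down in HPmECC (-2.74, with SE 0.17 and adjusted p = 1.60e-11).

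Of 27 genes of motile cilia around FOXJ1, 25 were in the table and 11 were tested. In mECC against normal 5 rose and 5 fell, beside 42.1% and 44.2% of all genes tested. In HPmECC against normal 5 rose and 5 fell as well, beside 43.0% and 43.3%. Between the lines 3 were higher and 2 lower in HPmECC, beside 33.8% and 34.5% of all genes. Rfx2 and Rfx3, regulators of cilium genes, rose from 4.33 and 5.19 CPM in normal to 9.31 and 9.69 CPM in mECC, with log2 fold changes of 1.11 and 0.91 (edgeR adjusted p = 1.1e-08 and 2.3e-07). They also rose in HPmECC, where Foxj1 fell, to 8.35 and 12.9 CPM (log2 fold changes 0.96 and 1.32, edgeR adjusted p = 1.08e-07 and 7.11e-10), and Rfx3 was higher there than in mECC (0.41, adjusted p = 0.000557). Rsph9, a radial spoke protein of the motile axoneme, had log2 fold changes of -1.68 in mECC and -1.60 in HPmECC. The dynein heavy chains Dnah5, Dnah9 and Dnah11 were too sparse to test. Dnah5 had 26, 10 and 0 counts in normal, mECC and HPmECC, at least 11.4-fold lower in HPmECC than in normal. Dnah11 had 23, 1 and 1 counts, of which 14 were in normal replicate 2, and the ratio of normal to mECC was 31.7 (95% counting interval 5.15 to 1307). Dnah9 had 2, 4 and 1 counts. Dnah5 and Dnah11 were thus not high in mECC, where Foxj1 was, but these sparse genes do not stand for the whole list. Of its 11 tested genes, 4 rose and 5 fell by at least 2-fold in mECC against normal, beside 18.4% and 22.8% of all genes. The 5 markers of ciliated cells, which include Foxj1 itself, summed to 5.35 to 5.82 CPM in normal, 27.3 to 32.2 CPM in mECC and 6.85 to 7.79 CPM in HPmECC. Dynlrb2 was at 0 in normal, and Dynlrb2 and Dnah5 were at 0 in HPmECC. Foxj1 alone averaged 3.91, 25.1 and 0.581 CPM in normal, mECC and HPmECC. It thus made up most of the sum in mECC and little of it in HPmECC. Of these markers 3 were tested, Foxj1 included. In mECC against normal 3 rose and 0 fell, and in HPmECC against normal 2 rose and 1, Foxj1, fell. Each of these changes was at least 2-fold, beside 41.2% of all genes in mECC and 41.5% in HPmECC.

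Among uterine gland genes around FOXA2, Cxcl15 was high in mECC like Foxa2, and the other tested genes were lower in both lines than in normal. Of the 13, 10 were tested. In mECC against normal 1 rose and 9 fell, beside 42.1% and 44.2% of all genes tested. In HPmECC against normal 1 rose and 9 fell, beside 43.0% and 43.3%. Between the lines 1 was higher and 6 lower in HPmECC, beside 33.8% and 34.5%. Cxcl15, a chemokine of uterine glands, had 0 counts in normal, 149 ± 11 CPM in mECC and 1.40 ± 0.27 CPM in HPmECC, at least 3658-fold and at least 35.1-fold above the floor. HPmECC was 104-fold below mECC (log2 fold change -6.70, edgeR adjusted p = 9.22e-18). Sox17, a gland factor, went from 361 ± 7.4 CPM in normal to 0.768 ± 0.30 CPM in mECC and to 0 in HPmECC. Wnt7a, a signal of the luminal epithelium, went from 291 to 9.50 and 0.0450 CPM. The secreted products Ltf and Prap1 had 105299 and 223544 counts in normal and at most 12 in either line. The summed epithelial markers given above fell in the same order, and their part in these values was not tested.

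Foxo1 (ENSMUSG00000044167), the FOXO member of decidual stroma, was lower in both lines. It had 182, 188, 179 and 189.9 CPM in normal, 63.5, 68.0, 60.9 and 70.4 CPM in mECC and 69.0, 66.1, 66.7 and 73.9 CPM in HPmECC. The lines overlapped and both lay far below normal. The fall was 2.81-fold in mECC (log2 fold change -1.49, with SE 0.04 and adjusted p = 1.39e-16 by edgeR) and 2.68-fold in HPmECC (-1.42, with SE 0.04 and adjusted p = 2.85e-16). The lines differed by 0.07 (SE 0.05, adjusted p = 0.176).

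The other FOXO genes were level or higher in the lines. Foxo3 (ENSMUSG00000048756), the widely expressed stress-response member, had 72.3 ± 2.54, 73.2 ± 4.29 and 95.4 ± 7.29 CPM, and was 1.32-fold above normal in HPmECC (log2 fold change 0.40, with SE 0.05 and adjusted p = 5.68e-07 by edgeR). In mECC against normal its change was 0.02 (SE 0.05, adjusted p = 0.779), and with library totals in place of TMM factors it was 0.26 (adjusted p = 8.06e-05). Limma also called it, at 0.26 on log2(TPM + 1) (adjusted p = 0.00096) and 0.27 on log2(TPM + 0.1) (adjusted p = 0.00091). Foxo4 (ENSMUSG00000042903) had 27.3 ± 1.32, 35.9 ± 1.47 and 43.6 ± 1.88 CPM, and it rose 1.31-fold in mECC and 1.59-fold in HPmECC (0.39 and 0.67, SE 0.05 each, adjusted p = 4.22e-07 and 1.24e-10). Foxo6 (ENSMUSG00000052135), known mainly from brain, had 0.745, 0.416, 0.275 and 0.459 CPM in normal, 5.90, 5.52, 5.91 and 6.00 CPM in mECC and 11.04, 9.69, 9.87 and 10.4 CPM in HPmECC. Its groups did not overlap, and it rose 12.5-fold in mECC and 22.004-fold in HPmECC (3.65 and 4.46, SE 0.17 and 0.16, adjusted p = 1.95e-13 and 2.46e-15). HPmECC exceeded mECC 1.76-fold (0.81, with SE 0.09 and adjusted p = 3.83e-07).

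Of 30 genes that regulate FOXO proteins or are known FOXO targets, 29 were tested. They were called in both directions, as were all genes tested. In mECC against normal 12 rose and 15 fell, beside 42.1% and 44.2% of all genes. In HPmECC against normal 13 rose and 15 fell, beside 43.0% and 43.3%. Between the lines 14 were higher and 9 lower in HPmECC, beside 33.8% and 34.5%. The list's median log2 fold change was -0.16 in mECC and -0.20 in HPmECC against normal, beside -0.02 and 0.00 over all genes tested. Sesn1, a stress-induced inhibitor of mTORC1, rose from 4.58 ± 0.41 CPM in normal to 55.6 ± 2.2 in mECC and 69.4 ± 2.8 in HPmECC (edgeR log2 fold changes 3.61 and 3.94). Cdkn1b, the cell-cycle inhibitor p27, rose 5.76-fold in mECC, from 19.3 to 112 CPM. Irs2, an insulin receptor substrate, fell 5.68-fold in mECC, from 36.5 to 6.40 CPM, and Klf2 fell 5.29-fold in HPmECC, from 7.79 to 1.45 CPM. Sgk3, a kinase that phosphorylates FOXO proteins, fell 9.68-fold in HPmECC, from 50.5 to 5.22 CPM. Between the lines Pdk4, Sesn3 and Bcl2l11 were lower in HPmECC, with log2 fold changes of -1.39, -1.33 and -1.14.

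Of 12 genes of decidual stroma linked to FOXO1, 10 were tested. In mECC against normal 4 rose and 4 fell, beside 42.1% and 44.2% of all genes tested. In HPmECC against normal 3 rose and 6 fell, beside 43.0% and 43.3%. Between the lines 2 were higher and 7 lower in HPmECC, beside 33.8% and 34.5%. Hoxa11, a factor of uterine stroma, fell 82.6-fold in mECC (8.58 to 0.105 CPM) and 7.53-fold in HPmECC (1.12 CPM). Wnt4, a signal of decidualization, rose 8.72-fold in mECC and was 16.6-fold lower in HPmECC than in mECC, at 6.41, 55.7 and 3.41 CPM in normal, mECC and HPmECC. Hand2, a stromal progesterone target, went from 12.1 to 2.14 and 0.177 CPM. The decidual products Igfbp1 and Prl8a2 had at most 6 counts in any group.

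Foxm1 (ENSMUSG00000001517), the Forkhead factor of dividing cells, was higher in both lines. It had 44.0, 45.9, 47.0 and 47.1 CPM in normal, 113, 103, 109 and 102 CPM in mECC and 117, 117, 117 and 115 CPM in HPmECC. No group overlapped another, and the gap between the lines was small. It was 2.31-fold above normal in mECC (log2 fold change 1.21, with SE 0.04 and adjusted p = 2.56e-16 by edgeR) and 2.52-fold in HPmECC (1.34, with SE 0.04 and adjusted p = 5.27e-17). Between the lines the change was 0.13 (SE 0.03, adjusted p = 0.00254), and on the log2(TPM + 1) scale it was 0.02 with an adjusted p of 0.780.

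The 23 genes listed as mitotic genes of FOXM1 and the MuvB complex were tested without exception. The list also holds genes of the complex itself, Lin9, Lin37, Lin52 and Lin54. In HPmECC against normal 21 rose and 1 fell, beside 43.0% and 43.3% of all genes tested. The list's median log2 fold change was 1.17, beside 0.00 over all genes. The 1 that fell, Lin52, was lost without HPmECC replicate 2, 3 or 4 or normal replicate 1, 2 or 4, which left 0. In mECC against normal 18 rose and 4 fell (median 0.69), beside 42.1% and 44.2% of all genes. Without mECC replicate 2, mECC replicate 4 or normal replicate 2 the number that fell was 2. Between the lines 21 were higher and 0 lower in HPmECC (median 0.48), beside 33.8% and 34.5% of all genes. Cdc25b, a phosphatase that starts mitosis, rose from 23.5 ± 1.9 CPM in normal to 92.2 ± 2.2 in mECC and 131 ± 5.3 in HPmECC (edgeR log2 fold changes 1.97 and 2.48). Cenpa, the centromere histone, stood at 40.3, 96.6 and 128 CPM, and Skp2, which targets p27 for degradation, at 13.5, 36.1 and 36.7 CPM. Lin52, a subunit of MuvB itself, went the other way in mECC, at 8.49, 3.94 and 7.35 CPM.

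**Figure D5:**
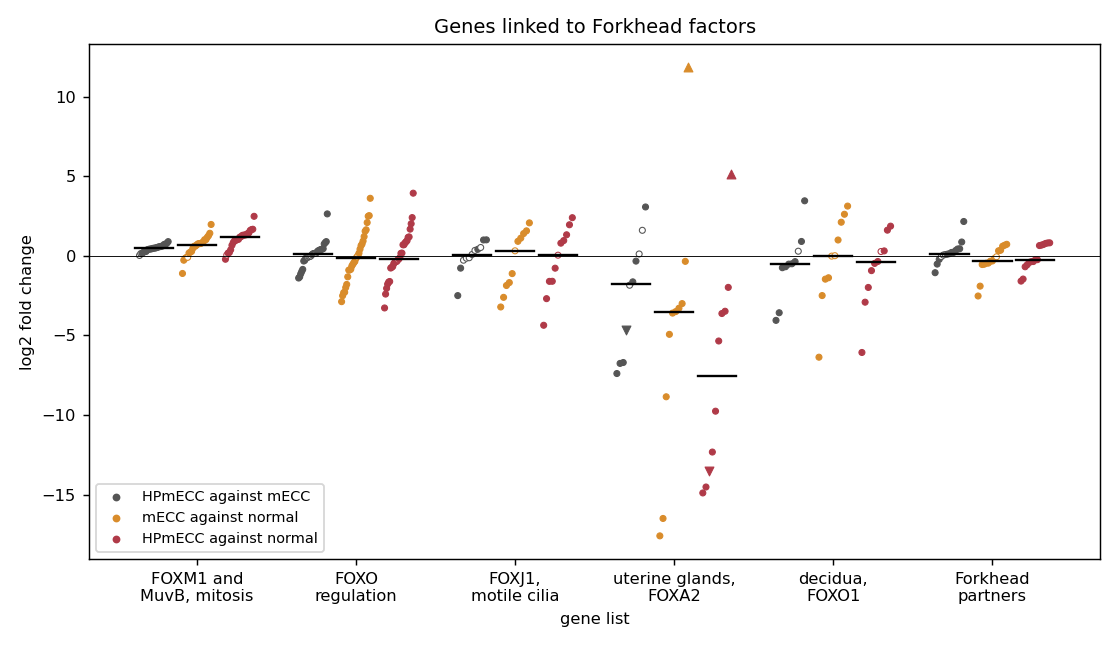
Log2 fold changes (vertical axis) of the tested genes of 6 lists linked to Forkhead factors, for the 3 comparisons; each point is a gene, filled where the adjusted p is at most 0.05, triangles are lower bounds for genes with no counts in 1 group, and black lines are medians. The mitotic genes lie mostly above 0 in the 3 comparisons, the gland genes mostly below, and the FOXO genes on both sides.

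Foxk1 (ENSMUSG00000056493), which represses genes of autophagy and promotes glycolysis, rose in steps. Its libraries held 61.8, 58.5, 57.4 and 58.3 CPM in normal, 111, 115, 113 and 119 CPM in mECC and 149, 144, 145 and 149.6 CPM in HPmECC. The 3 groups did not overlap. It was 1.94-fold above normal in mECC (log2 fold change 0.96, with SE 0.03 and adjusted p = 1.10e-15 by edgeR), 2.50-fold in HPmECC (1.32, with SE 0.03 and adjusted p = 6.79e-18) and 1.29-fold higher in HPmECC than in mECC (0.36, with SE 0.03 and adjusted p = 3.01e-09). Foxk2 (ENSMUSG00000039275), its partner in the subfamily, rose 1.33-fold and 1.36-fold against normal (0.41 and 0.45, SE 0.03 each, adjusted p = 1.78e-10 and 5.61e-11). The lines overlapped for Foxk2, with a log2 fold change of 0.03 (SE 0.03, adjusted p = 0.332), and the sign of this difference turned under 3 alternative settings.

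Foxp1 (ENSMUSG00000030067), a repressor with roles in B cells, lung and heart, followed the order of Foxk1, at 60.7 ± 1.65, 83.2 ± 1.81 and 119 ± 3.44 CPM. It rose 1.37-fold in mECC and 1.96-fold in HPmECC (log2 fold changes 0.45 and 0.97, SE 0.03 each, edgeR adjusted p = 1.80e-10 and 9.19e-16), and HPmECC exceeded mECC 1.43-fold (0.52, with SE 0.03 and adjusted p = 2.98e-11). Foxp4 (ENSMUSG00000023991) rose 1.29-fold and 1.32-fold against normal (0.37 and 0.40, SE 0.03 each, adjusted p = 1.58e-09 and 5.16e-10) and overlapped between the lines. Foxp2, known from speech circuits, and Foxp3, which defines regulatory T cells, were not tested. They had 9, 14 and 6 counts, and 6, 12 and 6 counts, in normal, mECC and HPmECC. The 5 further markers of regulatory T cells summed to 9.95 to 11.6 CPM in normal, 12.8 to 14.7 CPM in mECC and 11.5 to 14.8 CPM in HPmECC. Cd3e, Cd4 and Ctla4 were at 0 in both lines, and Ctla4 was at 0 in normal as well. Ikzf2 made up most of the sums, at 10.7, 13.3 and 12.5 CPM in normal, mECC and HPmECC. Ikzf2 was called higher in both lines than in normal (log2 fold changes 0.31 and 0.21, edgeR adjusted p = 0.00296 and 0.0338), and Il2ra had 0, 9 and 47 counts in normal, mECC and HPmECC. The part of these markers in the counts of Foxp3 was not tested, and 23.1% of the 50-base runs of Foxp3 are shared with overlapping genes.

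Foxj2 and Foxj3, widely expressed relatives of Foxj1, were lower in both lines. Foxj3 (ENSMUSG00000032998) had 72.4 ± 4.35, 41.9 ± 0.902 and 52.9 ± 2.09 CPM in normal, mECC and HPmECC, with log2 fold changes of -0.79 and -0.46 against normal (SE 0.04 each, edgeR adjusted p = 2.43e-12 and 8.10e-09). Foxj2 (ENSMUSG00000003154) had 56.2 ± 2.68, 43.5 ± 1.38 and 40.7 ± 2.09 CPM, with -0.37 and -0.46 against normal (SE 0.04 each, adjusted p = 2.43e-07 and 1.06e-08). Between the lines Foxj3 was 1.26-fold higher in HPmECC (adjusted p = 1.68e-06), and Foxj2 did not pass the test (-0.10, with SE 0.04 and adjusted p = 0.0604), although it did without HPmECC replicate 1 (adjusted p = 0.0165), with library totals (0.00735) and with median-of-ratios factors (0.0340).

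Foxn3 (ENSMUSG00000033713), a checkpoint suppressor, had 69.0, 79.2, 71.3 and 70.4 CPM in normal, 25.6, 24.4, 22.2 and 23.1 CPM in mECC and 30.3, 26.6, 27.4 and 29.2 CPM in HPmECC. The groups did not overlap. It fell 3.05-fold in mECC and 2.56-fold in HPmECC (log2 fold changes -1.61 and -1.35, SE 0.05 each, edgeR adjusted p = 1.34e-15 and 1.51e-14). HPmECC exceeded mECC 1.19-fold (0.25, with SE 0.06 and adjusted p = 0.000845), a call lost on the log2(TPM + 1) scale (adjusted p = 0.125). Foxn2 (ENSMUSG00000034998) was 1.38-fold above normal in HPmECC (0.46, with SE 0.05 and adjusted p = 2.06e-07) and overlapped with normal in mECC (0.04, with SE 0.06 and adjusted p = 0.462). With library totals the latter was 0.28 (adjusted p = 0.000108). Limma gave 0.24 on log2(TPM + 1) (adjusted p = 0.0058) and 0.27 on log2(TPM + 0.1) (adjusted p = 0.0059).

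Foxn1 (ENSMUSG00000002057), a factor of thymus and hair epithelium, was low and fell in steps. It had 2.98, 2.13, 2.98 and 2.94 CPM in normal, 1.11, 1.45, 1.305 and 0.723 CPM in mECC and 0.767, 0.500, 0.525 and 0.368 CPM in HPmECC. Normal lay above both lines, and the lines overlapped. The fall was 2.37-fold in mECC (log2 fold change -1.24, with SE 0.22 and adjusted p = 4.51e-05 by edgeR) and 5.10-fold in HPmECC (-2.35, with SE 0.25 and adjusted p = 6.71e-08), and HPmECC was 2.16-fold below mECC (-1.11, with SE 0.27 and adjusted p = 0.00151).

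Foxl2 (ENSMUSG00000050397), the member of uterine stroma and ovary, was found almost solely in normal cells. It had 2.10, 1.71, 2.26 and 2.11 CPM in normal (151 counts in all) and 0.0428, 0.0363, 0.0725 and 0.0426 CPM in mECC (5 counts), and no counts in HPmECC. Normal lay far above both lines. The fall in mECC was 37.6-fold (log2 fold change -5.23, with SE 0.35 and adjusted p = 6.28e-10 by edgeR), and Foxl2 was at least 66.5-fold lower in HPmECC than in normal. Between the lines the bound was at least 1.60-fold, called by edgeR (adjusted p = 0.0154) and not by DESeq2 (adjusted p = 0.0565) or limma on log2(TPM + 1) (adjusted p = 0.577). Foxl2os, a noncoding gene on the opposite strand at its start, had 30, 2 and 0 counts. The mesothelial and smooth muscle markers given above were also far lower in the lines. The 8 stromal markers had a larger sum in both lines, with 4 higher and 4 lower than in normal. The part of these markers in the level of Foxl2 was not tested.

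The sparsest members had too few counts for a test. Foxh1, a partner of SMAD proteins, had 14, 6 and 3 counts in normal, mECC and HPmECC, a ratio of 6.16 between normal and HPmECC with a 95% counting interval from 1.72 to 33.4. Foxb1 (1, 0 and 0), Foxi1 (2, 0 and 0), Foxi2 (0, 0 and 1) and Foxr2 (3, 0 and 0) had at most 3 counts in a group. At this depth a group with 0 counts allows up to 3, so low expression of the members listed at 0 was not detectable.

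Transcripts of proteins that work with Forkhead factors were called in both directions, as were those of all genes tested. Of the 15 tested, 5 rose and 9 fell in mECC against normal, where 86.3% of all genes were called. In HPmECC against normal 6 rose and 9 fell, beside 86.4% of all genes. Between the lines 9 were higher and 3 lower in HPmECC, beside 68.3% of all genes. Nfatc2, which binds DNA beside FOXP proteins, stood at 16.3 ± 0.92, 2.85 ± 0.44 and 12.7 ± 1.4 CPM in normal, mECC and HPmECC, and was higher in HPmECC than in mECC by 4.46-fold (edgeR adjusted p = 2.61e-12). Ctbp2, a corepressor, fell 3.74-fold in mECC and 2.75-fold in HPmECC, at 167, 44.7 and 60.8 CPM. Smad3, which acts with FOXO and FOXH1 proteins, fell 3.01-fold in HPmECC, at 182, 126 and 60.5 CPM.

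The mean transcript length implied by counts over TPM could be compared for 15 members. It moved by over 10% in Foxj2 (11.5%) and Foxp1 (11.97%), both in mECC against normal and both with overlapping libraries. In that comparison 10.8% of 10272 genes moved by over 10%. The other members that overlap a gene on either strand share at most 6.80% of their 50-base runs with it, which was the value of Foxo1 and the antisense Gm20402, apart from the sparse Foxb1.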

How the data were processed

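The authors deposited gene tables made with Trim Galore, STAR 2.6.1a and RSEM 1.3.1 on mouse build GRCm38, per the submitters' processing notes. Not given in the sources used here are the annotation release and the strand setting. The RSEM expected counts that the authors deposited were rounded to whole numbers. The deposited TPM values, scaled by the authors to length and a fixed sum, served for levels between genes and for alternatives; FPKM was not used. Symbols matched 55144 of 55385 identifiers.

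Groups were compared with edgeR 4.0.16 in R 4.3.3 (quasi-likelihood test, TMM factors, filterByExpr with a minimum of 10 counts, 1 fit over 12 libraries), with Benjamini-Hochberg adjustment over 15283 genes and a threshold of 0.05. The method was tested on simulated data. SE values came from the F statistic. CPM use the filtered counts as library size, with TMM factors; errors after ± are SD over 4 libraries. The biological coefficient of variation was 4.27%. A group at 0 was set to 3 counts for a lower bound; with 1 to 3 counts a ratio has an exact 95% counting interval, which covers counting error only.

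The members and gene lists were chosen with earlier results of these data known. Values of every library were printed for members called with a log2 fold change of at least 1 in size and at least 2 CPM in the highest group. From each list, up to 3 genes per comparison that changed most and had at least 5 CPM in the higher group were eligible to be named; other named genes were chosen after their values were seen. Alternatives used DESeq2 1.42.0, limma 3.58.1 on log2(TPM + 1) or log2(TPM + 0.1), other scaling and filters, a replicate block, and each library left out in turn. Libraries of a group differed beyond sampling noise. Recognition helix stretches came from GENCODE M21 transcripts and promoters from RefSeq on GRCm38.p6. The lists of regulatory T cell and noncoding genes had 1 and 2 tested genes: the first rose against normal in both lines, and the noncoding genes are given above. The values of 1 tested member are not reported here, although counts over the family include it.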

Additional observations from a re-analysis of the deposited data

Results flagged for a closer look

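Foxj1 differed between HPmECC and mECC by a log2 fold change of -5.41, while its change against normal was positive in mECC and negative in HPmECC; the difference between the lines was tested by edgeR as given above. In 7 of the 78 groups of 4 libraries checked, 1 library lay far from the other 3, where chance gives about 1 in 20. These were Foxa1 in mECC replicate 2 (2.76 CPM, the lowest) and Foxc2 in mECC replicate 2 (14.8 CPM, the highest). Foxd1 in normal replicate 1 (0.135 CPM) was the single normal library with counts of this gene. Foxk2 in normal replicate 4 (137 CPM) and Foxn2 in mECC replicate 1 (35.3 CPM) were the highest of their groups. Foxn1 in normal replicate 2 (2.13 CPM) was the lowest, and Foxq1 in HPmECC replicate 1 (9.72 CPM) the highest.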

How the results depend on the processing

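Of 1364 values of single Forkhead genes under the alternatives, 1320 kept their direction and their side of the threshold, 16 were called anew, 8 lost their call and 20 turned their sign; the cause was not tested. In none of the 20 did the value pass the threshold in both settings. In mECC against normal, Foxo3 was -0.0072 with median-of-ratios factors and -0.0010 with DESeq2, and ranged from -0.017 (without mECC replicate 4) to 0.049 with 1 library left out; Foxn2 ranged from -0.00098 (without normal replicate 1) to 0.079. Foxs1 was 0.11 with library totals, 0.11 on log2(TPM + 1) and 0.12 on log2(TPM + 0.1). Between the lines, Foxp4 was -0.015 with library totals, -0.042 on log2(TPM + 1) and -0.043 on log2(TPM + 0.1), and Foxk2 was -0.012, -0.0162 and -0.0164 in the same order. Foxl1 was -0.0013 on log2(TPM + 0.1) and ranged from -0.043 (without HPmECC replicate 3) to 0.17. In HPmECC against normal, Foxa1 ranged from -0.17 (without HPmECC replicate 3) to 0.24, with -0.081 without normal replicate 1, and Foxa2 was 0.0054 and 0.012 on the TPM scales. With at least a 2-fold change the numbers of Forkhead genes that were higher dropped to 2 between the lines, 11 in mECC and 11 in HPmECC. With at least 5 CPM in 4 libraries, where fewer genes were tested, 4 were lower between the lines. Leaving out 1 library at a time gave 13 to 14 higher and 7 to 8 lower between the lines, 17 higher and 7 to 8 lower in mECC, and 17 higher and 8 lower in HPmECC. Library totals moved the median of all genes to 0.22 in mECC and 0.20 in HPmECC, and the share of higher calls in mECC over all genes from 48.8% to 59.1%; the Forkhead split there was 19 higher and 7 lower. The labels do not say whether replicate numbers pair libraries across groups. Deviations of same-numbered libraries correlated at -0.07 to 0.10, which cannot tell whether such libraries shared a preparation. With the replicate number as a block the counts stayed at 13 higher and 7 lower between the lines, and none of the 81 single-gene calls changed. Depth limits the members that did not pass the count filter, which were not tested, and Foxd1, Foxl1 and Foxl2, which had at most 5 counts in their low groups.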
